A study of Mus musculus with 2 samples.

Results

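The secreted factors that act on blood vessels were followed across the stroma of mouse bone marrow: Vegfa, Vegfb, Vegfc and Pgf of the vascular endothelial growth factor (VEGF) family, the angiopoietins Angpt1, Angpt2 and Angpt4, the angiopoietin-like protein Angptl4, and endocan, encoded by Esm1. These 9 of the 32293 genes in the matrix were taken by name, and all 9 were found under their own symbols. The nuclei, read for both RNA and open chromatin (ATAC), belonged to tdTomato+ cells that had been sorted out of femurs of Prrx1-cre; R26R(tdTomato/+) mice of both sexes on postnatal day 21. Every nucleus thus came from 1 genotype and 1 age, and with 1 pooled library of each kind there were no replicates, no untreated or mutant group and no test between animals. The Cre is driven by a Prrx1 enhancer of the limb skeletal lineage, so tdTomato marks that lineage and its descendants, and the growth plate at the knee end of the bone had been removed. Groups are therefore classes of nuclei, gated on marker genes that do not include the 9 factors, with no limit on mitochondrial RNA.

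VEGF-A drives the sprouting of vessels through the receptor Kdr and is held back by the decoy receptor Flt1, to which VEGF-B and placental growth factor (Pgf) bind. VEGF-C acts mainly through Flt4 on lymphatic vessels and on sinusoids, the wide capillaries of marrow. Angiopoietin 1 (Angpt1) activates the endothelial receptor Tek and steadies vessels, angiopoietin 2 (Angpt2) often opposes it, and Angpt4 is a further Tek ligand. Angptl4 inhibits lipoprotein lipase and does not signal through Tek, and endocan is a secreted proteoglycan best known from endothelial tip cells, where VEGF-A induces it. In marrow, the reticular cells that carry the leptin receptor (Lepr) and make the chemokine Cxcl12 lie along the sinusoids.

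Of 4489 barcodes kept as nuclei, 1396 (31.1%) fell into 6 stromal classes with 6837702 RNA molecules (UMIs) and 54906285 ATAC counts. They were 655 reticular-like nuclei, 37 intermediate nuclei with both reticular and osteoblast markers, 351 osteoblast-like, 149 osteocyte-like, 79 chondrocyte-like and 125 mural-like nuclei, mural cells being the smooth muscle cells and pericytes of vessel walls. Gate markers at least 2-fold over empty droplets numbered 11 of 11 in reticular-like and 6 of 9 in osteoblast-like and in osteocyte-like nuclei. They numbered 10 of 11 in chondrocyte-like and 8 of 10 in mural-like nuclei. The same markers set the gates, so these counts are no independent check of the class names. The osteoblast gate was the loosest, with 159 of its 351 nuclei between 2- and 3-fold and 74 further nuclei just outside it. Median depth ran from 1706 UMIs in reticular-like to 9841 in chondrocyte-like nuclei, and the median mitochondrial share from 6.66% in intermediate to 23.2% in chondrocyte-like nuclei, so both differ between classes and their part in the differences below was not tested. Reference values are given for 581 blood-like nuclei and for 62603 empty droplets, which hold the free RNA of the suspension. Empty droplets held a median of 229 UMIs. Their level gives the make-up of that free RNA and not its amount within a nucleus. A level under theirs need not be background. Levels are UMI counts scaled to the class total, as counts per 1e+06 (CPM), with exact Poisson 95% intervals in parentheses that cover counting error only. Because nuclear RNA scales with gene length, levels are compared between classes within a gene and never between genes.

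The 9 genes were not spread evenly over the stroma. In RNA, 7 of the 8 that could be assessed were at least 2-fold higher in reticular-like nuclei than in the other 5 classes together, against 23.8% of all genes assessed, and none was lower, against 8.75%. A gene was assessed with at least 20 UMIs over both sides, which left out Vegfb with 18 UMIs. Intermediate nuclei were higher for 4 (30.6% of all genes) and lower for 0 (8.69%), and mural-like nuclei were higher for 2 (14.8%) and lower for 2 (15%). The 3 matrix-forming classes lay on the other side. Osteoblast-like nuclei were lower for 7 (25.1% of all genes) and higher for 0 (2.57%), osteocyte-like nuclei lower for 6 (20.3%) and higher for 0 (2.96%), and chondrocyte-like nuclei lower for 7 (21.8%) and higher for 0 (13.6%). The median log2 ratio over all 9 genes was 2.45 in reticular-like nuclei, where that of all genes assessed was 0.45, and 1.49 in intermediate nuclei, where it was 0.54. It was −1.99 in osteoblast-like nuclei against −0.43 for all genes, −2.25 against −0.33 in osteocyte-like nuclei and −0.37 against 0.10 in mural-like nuclei.

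**Figure D1:**
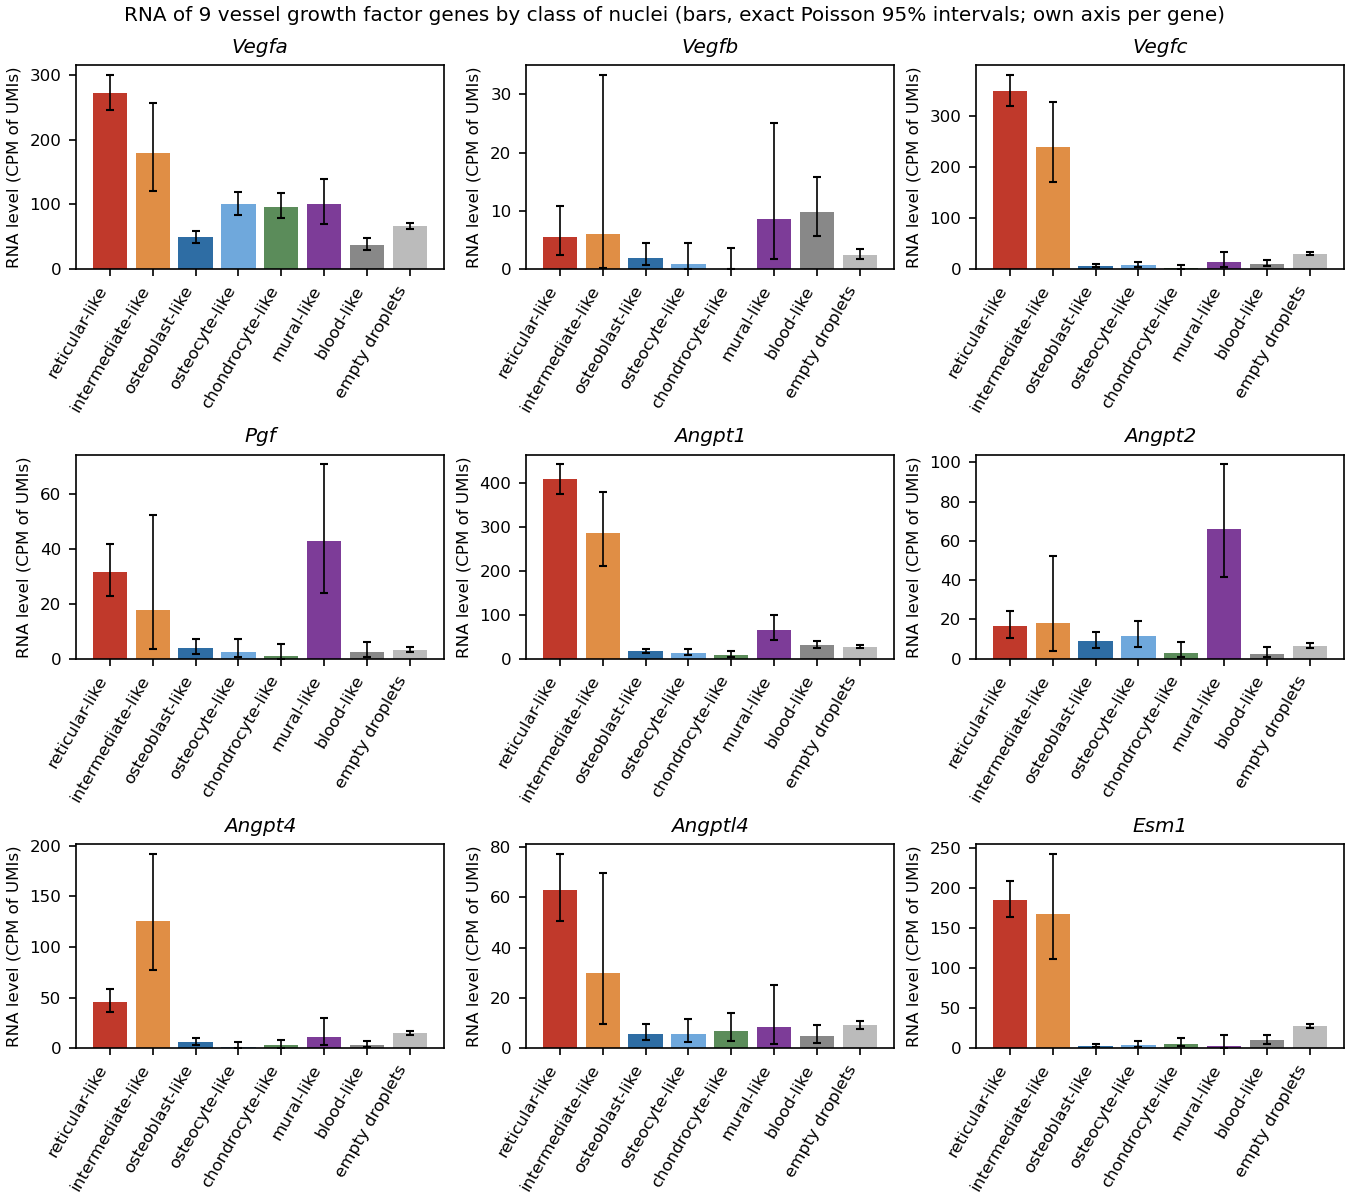
RNA level of each of the 9 genes (y axis, CPM of UMIs summed over the class, 1 panel a gene, with its own scale) in the 6 stromal classes, blood-like nuclei and empty droplets (x axis). Bars are levels and whiskers are exact Poisson 95% intervals. Vegfc and Esm1 are above the empty droplets in reticular-like and intermediate nuclei only. Vegfa is above them in every stromal class but osteoblast-like nuclei, and Angpt2 is highest in mural-like nuclei at 65.9 CPM.

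Vegfa (chr17:46016993-46032369, minus strand, mm10), the main driver of vessel sprouting, was above the empty droplets in every stromal class but osteoblast-like nuclei. Reticular-like nuclei held 272 CPM (246 to 299.97), intermediate nuclei 179 (121 to 256), mural-like 100.3 (69.9 to 139.6), osteocyte-like 100.2 (83.3 to 119.5), chondrocyte-like 96.3 (78.3 to 117) and osteoblast-like nuclei 49.1 (41.0 to 58.5), against 37.7 in blood-like nuclei and 66.4 in empty droplets. Reticular-like nuclei were highest and osteoblast-like nuclei lowest, below the level of empty droplets, while the intervals of mural-, osteocyte- and chondrocyte-like nuclei overlap. One mural-like nucleus carried 11 of the 35 mural UMIs. Without it that class was at 71.4 CPM (45.7 to 106), an interval that includes the level of empty droplets. The ratio of reticular-like nuclei to the other 5 classes was 1.81 on the log2 scale (1.61 to 2.02). Within the bone lineage, osteocyte-like nuclei held 2.04 times (1.58 to 2.63) the Vegfa of osteoblast-like nuclei, whose level lies under that of empty droplets. The reticular excess rested largely on 1 group of nuclei described below: without its 175 nuclei, the log2 ratio was 0.86, under the 2-fold mark.

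Vegfc (chr8:54077606-54187096, plus strand), the ligand of Flt4, reached 348 CPM (318 to 379) in reticular-like and 239 (171 to 326) in intermediate nuclei. The other classes held 14.3 CPM (mural-like), 7.27 (osteocyte-like), 6.96 (osteoblast-like) and 2.89 (chondrocyte-like), against 11.0 in blood-like nuclei and 29.8 in empty droplets. Those 4 levels lie under the level of empty droplets, which the mural interval (4.65 to 33.5) includes. That comparison does not show how much of them is background. Its log2 ratio in reticular-like nuclei, 4.63 (4.29 to 5.01), was the highest ratio of the 9 genes in any class. That of Esm1 in the same nuclei was 4.42 (3.98 to 4.92), and these intervals overlap. Reticular-like nuclei also exceeded intermediate nuclei by a ratio of 1.45 (1.05 to 2.06), although the intervals of their levels overlap.

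Placental growth factor (Pgf, chr12:85166635-85177790, minus strand) had 2 sources. It was at 43.0 CPM (24.1 to 70.9) in mural-like nuclei and 31.5 (23.1 to 42.02) in reticular-like nuclei, and the ratio of mural-like to reticular-like nuclei, 1.37 (0.708 to 2.49), spans 1. Intermediate nuclei gave 17.9 CPM from 3 UMIs, and osteoblast-, osteocyte- and chondrocyte-like nuclei 3.87, 2.42 and 0.963 CPM, against 2.32 in blood-like nuclei and 3.19 in empty droplets. The log2 ratios to the other 5 classes were 2.40 in reticular-like and 2.18 in mural-like nuclei. Vegfb (chr19:6982473-6987651, minus strand), the other Flt1 ligand, had too few UMIs for a call, at 8.60 CPM in mural-like, 5.98 in intermediate, 5.48 in reticular-like, 1.93 in osteoblast-like and 0.808 in osteocyte-like nuclei. Chondrocyte-like nuclei had 0 UMIs, which allows up to 3.55 CPM, and blood-like nuclei had 9.86 CPM.

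Angpt1 (chr15:42424723-42676977, minus strand), the Tek agonist, reached 409 CPM (377 to 443) in reticular-like and 287 (212 to 381) in intermediate nuclei. Mural-like nuclei followed at 65.9 CPM (41.8 to 98.9), apart from both neighbours in the order, and osteoblast-, osteocyte- and chondrocyte-like nuclei had 17.0, 12.9 and 8.66 CPM, against 31.3 in blood-like nuclei and 27.4 in empty droplets. Angpt1 in mural-like nuclei thus stood above the level of empty droplets, while the 3 matrix-forming classes stood below it. The log2 ratio was 3.97 in reticular-like nuclei.

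Angpt2 (chr8:18690263-18741562, minus strand), the partner that often opposes Angpt1, had the other pattern. It was at 65.9 CPM (41.8 to 98.9) in mural-like nuclei, 17.9 in intermediate, 16.4 in reticular-like, 11.3 in osteocyte-like, 8.90 in osteoblast-like and 2.89 in chondrocyte-like nuclei, against 2.32 in blood-like nuclei and 6.52 in empty droplets. Mural-like nuclei exceeded reticular-like nuclei 4.01-fold (2.16 to 7.42) and the other 5 classes by 2.70 on the log2 scale. A single mural-like nucleus carried 9 of the 23 UMIs, and without it the mural level was 41.2 CPM (22.5 to 69.1). That interval overlaps those of intermediate nuclei (3.70 to 52.4, from 3 UMIs) and of reticular-like nuclei (10.5 to 24.5). By mitochondrial share, mural-like nuclei held Angpt2 at 106 CPM up to 10%, 110 CPM at 10 to 20% and 12.8 CPM (1.55 to 46.2, from 2 UMIs) over 20%. The excess in reticular-like nuclei, a log2 ratio of 0.44, did not reach 2-fold.

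Angpt4 (chr2:151911210-151945337, plus strand), the least studied Tek ligand, was the only one of the 9 with its highest level in intermediate nuclei. They held 126 CPM (77.8 to 192) from 21 UMIs, reticular-like nuclei 45.9 (35.6 to 58.3), and mural-, osteoblast-, chondrocyte- and osteocyte-like nuclei 11.5, 5.80, 2.89 and 1.62 CPM, against 2.90 in blood-like nuclei and 15.2 in empty droplets. The 2 highest classes did not overlap each other or the rest, and the log2 ratios to the other 5 classes were 3.23 in intermediate and 2.45 in reticular-like nuclei. In intermediate nuclei 1 nucleus carried 7 of the 21 UMIs, and without it the level was 88.0 CPM (48.1 to 148), which overlaps the reticular interval. When the other 5 classes were weighted equally in place of being summed, the reticular log2 ratio of Angpt4 was 0.60, under 2-fold.

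Angptl4 (chr17:33773750-33781830, minus strand), the inhibitor of lipoprotein lipase, reached 63.0 CPM (50.8 to 77.3) in reticular-like nuclei and 29.9 (9.71 to 69.8) in intermediate nuclei. It was at 8.60 CPM in mural-like, 6.74 in chondrocyte-like, 5.80 in osteoblast-like and 5.66 in osteocyte-like nuclei. Blood-like nuclei had 4.64 CPM and empty droplets 9.22, so these 4 classes did not exceed the level of empty droplets. The reticular log2 ratio was 3.18.

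Esm1 (chr13:113209659-113218098, plus strand), known chiefly from endothelium, reached 185 CPM (163 to 208) in reticular-like and 167.5 (111 to 242) in intermediate nuclei, which did not differ beyond counting error. A single intermediate nucleus carried 10 of the 28 UMIs, and without it the level was 112 CPM (66.3 to 177), which overlaps the reticular interval. The other classes held 5.78 CPM (chondrocyte-like), 4.04 (osteocyte-like), 2.87 (mural-like) and 2.32 (osteoblast-like), against 9.86 in blood-like nuclei and 27.3 in empty droplets. The reticular log2 ratio was 4.42, and the mural one −3.50. Since endothelial nuclei could carry the gene, the 12 endothelial markers were read in the same classes. Their summed level was 101 CPM (85.0 to 118) in reticular-like nuclei, with 9 of the 12 detected, 80.3 in mural-like, 59.8 in intermediate, 16.2 in osteoblast-like, 12.9 in osteocyte-like and 10.6 in chondrocyte-like nuclei, against 74.3 in blood-like nuclei and 28.5 in empty droplets. In reticular-like nuclei 134 of the 147 UMIs were Pecam1, and the other 11 markers summed to 8.90 CPM, with Egfl7, Esam and Sox17 at 0 and Cdh5 at 1 UMI. Of the Pecam1 UMIs, 94 lay in 38 reticular-like nuclei of an unnamed cluster, in which Esm1 was at 86.3 CPM (39.4 to 164). The 23 nuclei gated on endothelial markers themselves held Esm1 at 42.9 CPM (8.84 to 125), from 3 UMIs, and Angpt2 at 0 UMIs.

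Of the 9 genes, 3 overlap another gene on the other strand: Angpt1 the antisense gene Gm17473, Angpt2 the gene Mcph1, which contains it, and Esm1 the gene Gzmk. Whether counting used strand is not given in the sources used here, so UMIs of these pairs may not be fully separated.

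**Figure D2:**
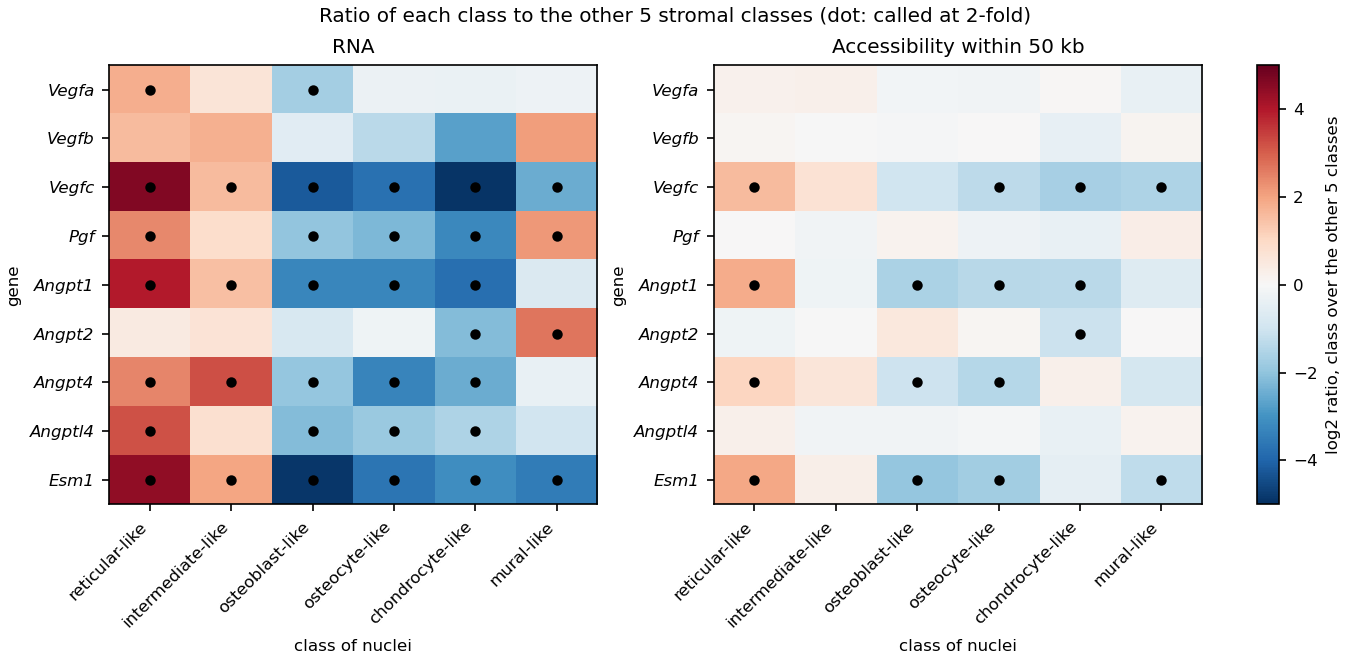
Log2 ratio of each class to the other 5 stromal classes together for the 9 genes (rows), in RNA (left) and in accessibility within 50 kb of the gene start (right), with classes as columns. A dot marks a ratio of at least 2-fold with at least 20 counts. In RNA the reticular column holds 7 dots on the higher side, and in accessibility it holds 4.

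Per nucleus, the genes were found as scattered molecules. Reticular-like nuclei had at least 1 UMI of Angpt1 in 41.4% (37.6 to 45.3%, exact Clopper-Pearson 95% interval), of Vegfc in 37.4%, of Vegfa in 31.0% and of Esm1 in 21.4% of nuclei, against 4.65, 2.58, 8.78 and 2.75% of blood-like nuclei, whose median depth was 2102 UMIs. These shares cannot be set against the deeper classes as they stand, since Vegfa reached 51.9% in chondrocyte-like and 42.3% in osteocyte-like nuclei. Every nucleus was thinned to 500 UMIs in a single random draw, which left out none. The share with Vegfa was then 10.1% (7.88 to 12.6%) in reticular-like, 5.06% (1.40 to 12.5%) in chondrocyte-like and 4.03% (1.49 to 8.56%) in osteocyte-like nuclei. It was 4% (1.31 to 9.09%) in mural-like, 2.70% (0.0684 to 14.2%) in intermediate and 2.28% (0.989 to 4.44%) in osteoblast-like nuclei, against 1.38% in blood-like nuclei. Among the stromal classes, only the osteoblast-like interval lies apart from the reticular one. For Angpt1 the thinned share was 17.1% (14.3 to 20.2%) in reticular-like and 8.11% (1.70 to 21.9%) in intermediate nuclei, and between 0 and 2.40% elsewhere, against 1.20% in blood-like nuclei.

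At least 1 of the 9 genes was seen at that depth in 41.5% (37.7 to 45.4%) of reticular-like, 24.3% (11.8 to 41.2%) of intermediate, 16% of mural-like, 7.59% of chondrocyte-like, 7.12% of osteoblast-like and 4.70% of osteocyte-like nuclei, against 4.99% of blood-like nuclei. The last 3 stromal shares were close to that of blood-like nuclei, although Vegfa alone had thinned shares of 5.06% in chondrocyte-like and 4.03% in osteocyte-like nuclei, against 1.38% in blood-like nuclei. Both of these Vegfa intervals overlap that of blood-like nuclei (0.596 to 2.70%). At least 2 of the genes were seen together in 10.2% (8.02 to 12.8%) of reticular-like nuclei.

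**Figure D3:**
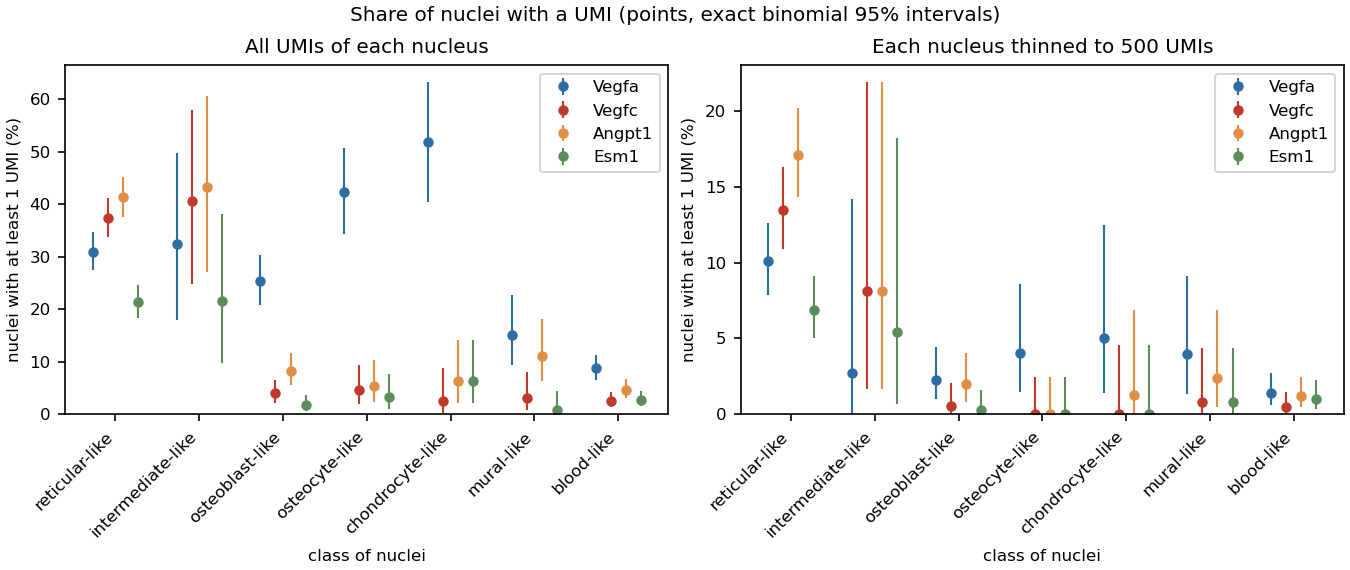
Share of nuclei with at least 1 UMI (y axis, percent) of Vegfa, Vegfc, Angpt1 and Esm1 by class (x axis), at full depth and with each nucleus thinned to 500 UMIs. Points are shares and bars are exact Clopper-Pearson 95% intervals. At full depth chondrocyte-like nuclei lead for Vegfa with 51.9%. After thinning reticular-like nuclei have the highest share, 10.1%, with an interval that overlaps those of all other stromal classes but osteoblast-like nuclei.

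Reticular-like nuclei were not uniform in these factors. Leiden clusters, made without the 9 genes, held 175 of them in a cluster with the long non-coding RNA Gm16685 at 1518 CPM and the neuregulin gene Nrg3 at 397 CPM, and 275 in a cluster with Gm16685 at 211 CPM and Nrg3 at 149 CPM, both genes chosen after their values were seen. Vegfa was at 500 CPM (442 to 563) in the Gm16685-high cluster and 154 (124 to 189) in the Gm16685-low cluster, a ratio of 3.25 (2.55 to 4.18). Vegfc ran the other way, at 248 CPM (208 to 294) in the Gm16685-high and 557 (498 to 621) in the Gm16685-low cluster, a ratio of 0.446 (0.361 to 0.547). Angpt1 was lower too, at 364 CPM against 591 CPM, a ratio of 0.615 (0.513 to 0.736). The ratios of Esm1, Pgf, Angptl4, Angpt4, Angpt2 and Vegfb had intervals that span 1, and Esm1 was at 203 CPM in the Gm16685-high and 249 CPM in the Gm16685-low cluster. These are descriptions of clusters, whose median mitochondrial shares were 7.39% and 7.002%. The other 3 clusters, of 116, 38 and 26 reticular-like nuclei, held Vegfa at 154, 134 and 35.4 CPM, Vegfc at 184, 125 and 142 CPM and Angpt1 at 238, 115 and 230.3 CPM, so the Gm16685-high cluster was second of the 5 for Vegfc and Angpt1.

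Another split followed the mitochondrial share of the nucleus. In reticular-like nuclei with up to 10%, 10 to 20% and over 20% mitochondrial UMIs (372, 193 and 90 nuclei), Vegfa was at 321, 233 and 116 CPM. Vegfc was at 406, 281 and 211 CPM, Angpt1 at 494, 318 and 194 CPM, and Esm1 at 242, 110 and 72.1 CPM. All 4 had a lower level with each step up in mitochondrial share, while Angpt4 did not, at 35.2, 70.1 and 44.4 CPM. Neighbouring intervals overlap at the lower step for Vegfa and at the upper step for Vegfc, Angpt1 and Esm1. Those of up to 10% and over 20% lie apart for all 4. In each of the 3 ranges Vegfc, Angpt1 and Esm1 remained above their levels in the 4 classes outside the reticular-like and intermediate nuclei. When all classes were held to at most 10%, the reticular log2 ratio was 4.01 for Vegfc, 3.43 for Angpt1, 3.83 for Esm1, 1.80 for Vegfa, 2.93 for Angptl4, 2.20 for Pgf and 1.30 for Angpt4, each still past 2-fold. Intermediate nuclei kept a call only for Angpt4 (2.34), with Vegfc at 0.43, Angpt1 at 0.71 and Esm1 at 0.93. Vegfa also moved within other classes over the same 3 ranges, at 196 (124 to 294), 105 and 60.7 CPM in chondrocyte-like nuclei and 21.2 (0.537 to 118), 186 and 44.8 CPM in mural-like nuclei. Up to 10%, these levels rest on 8 chondrocyte-like and 24 mural-like nuclei, and their intervals do not overlap.

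**Figure D4:**
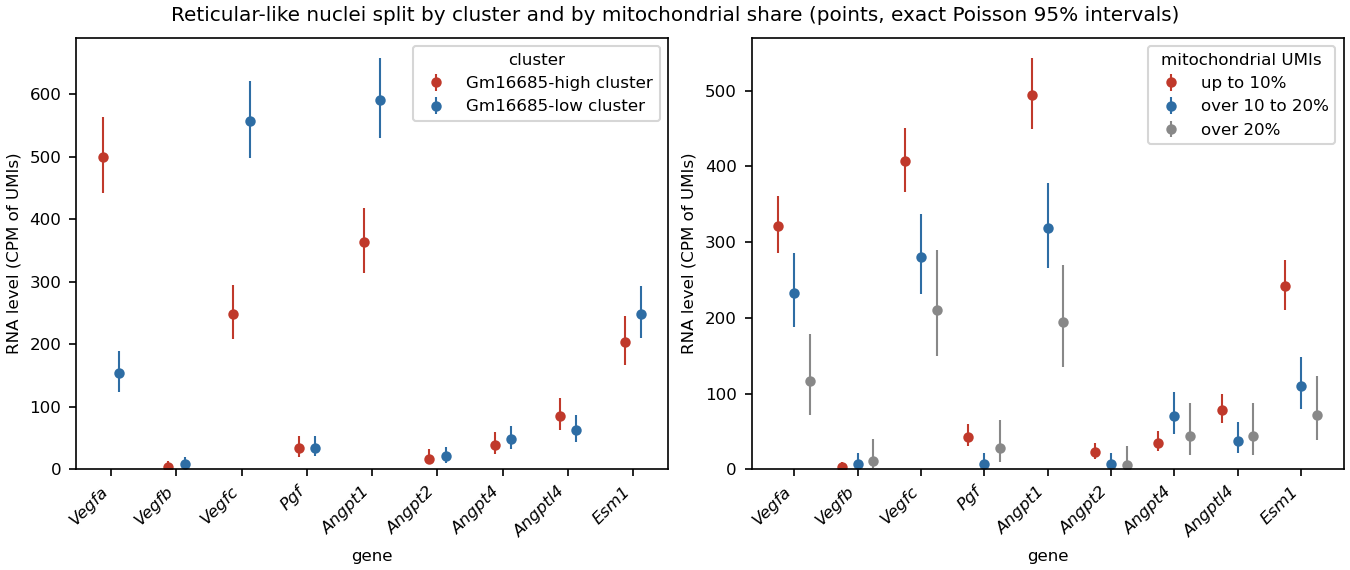
RNA level (y axis, CPM) of the 9 genes within reticular-like nuclei, in the Gm16685-high and Gm16685-low clusters (left) and by mitochondrial share of the nucleus, up to 10%, 10 to 20% and over 20% (right). Points are levels and bars are exact Poisson 95% intervals. Vegfa is higher and Vegfc and Angpt1 are lower in the Gm16685-high cluster. The levels of Vegfa, Vegfc, Angpt1 and Esm1 are lower with each step up in mitochondrial share, though for each gene some neighbouring intervals overlap.

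Among chondrocyte-like nuclei, the 13 with high Col10a1, the collagen of hypertrophic cartilage, held Vegfa at 120.0 CPM (83.6 to 167) and the other 66 at 87.0 CPM (67.1 to 111). These intervals overlap, so no difference was detectable at this depth.

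Open chromatin was read at the same genes as ATAC counts in peaks within 50 kb of the gene start, scaled to all counts in peaks (also CPM). In reticular-like nuclei 4 of the 9 were at least 2-fold higher, against 5.17% of all genes: Angpt1 with 108 CPM against 29.6 in the other 5 classes together, Esm1 with 198 against 51.8, Vegfc with 79.0 against 26.2 and Angpt4 with 147 against 69.1. The log2 ratios were 1.86, 1.93, 1.59 and 1.09. Those of Esm1 and Angpt4 depended on the window: within 10 kb Esm1 was at 0.78, and within 100 kb Angpt4 was at 0.80, both under 2-fold. No gene was lower (10.1% of all genes). Osteoblast-like nuclei were lower at 3 (Angpt1, Angpt4 and Esm1; 7.16% of all genes), osteocyte-like nuclei at 4 (the same with Vegfc; 6.97%), chondrocyte-like nuclei at 3 (Vegfc, Angpt1 and Angpt2; 6.21%) and mural-like nuclei at 2 (Vegfc and Esm1; 6.53%). None of these classes was higher at any of the 9, against 4.38% of all genes in osteoblast-like, 2.45% in osteocyte-like, 10.4% in chondrocyte-like and 3.18% in mural-like nuclei. Intermediate nuclei had no call in either direction (3.05% higher and 5.51% lower among all genes).

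Outside these 4 genes, the only call was that of Angpt2 in chondrocyte-like nuclei, at 59.2 CPM against 125 in the other 5 classes, and osteoblast-like nuclei held 155 CPM at the same window against 108. The window of Vegfa held 182 CPM in reticular-like nuclei and 156 in the other 5 classes together, a log2 ratio of 0.22 beside 1.81 in RNA. Angptl4, at 327 CPM against 276, and Pgf, at 168 CPM against 167, were as flat, with RNA log2 ratios of 3.18 and 2.40. Over the 6 classes, log2 RNA and log2 accessibility had a Pearson r of 0.946 for Vegfc, 0.942 for Angpt1 and 0.926 for Esm1, and between 0.416 (Angptl4) and 0.791 (Vegfb) for the others. The 6 points share the same nuclei and differ in depth, so these values are descriptions.

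Single peaks showed where the differences lay. Within 50 kb of the 9 gene starts there were 177 peaks, of which 155 had at least 50 counts. In reticular-like nuclei 56 of these (36.1%) were at least 2-fold higher than in the other 5 classes, against 21.3% of all peaks, and 19 were lower, against 32.2%. The 56 were unevenly shared out: 6 of 7 at Vegfc, 9 of 12 at Angpt1, 15 of 22 at Esm1 and 10 of 23 at Angpt4, but 4 of 17 at Vegfa, 5 of 22 at Angpt2, 3 of 19 each at Pgf and Angptl4 and 1 of 14 at Vegfb. Other classes had fewer higher peaks: 18 in intermediate (14.9% of all peaks), 17 in osteoblast-like (17%), 9 in osteocyte-like (13.4%), 20 in chondrocyte-like (21.6%) and 11 in mural-like nuclei (13%), so in none of these did the share of the 155 exceed that of all peaks. Lower peaks numbered 38 in intermediate (29% of all peaks), 66 in osteoblast-like (30.8%), 66 in osteocyte-like (28%), 60 in chondrocyte-like (31.5%) and 51 in mural-like nuclei (26.7%).

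**Figure D5:**
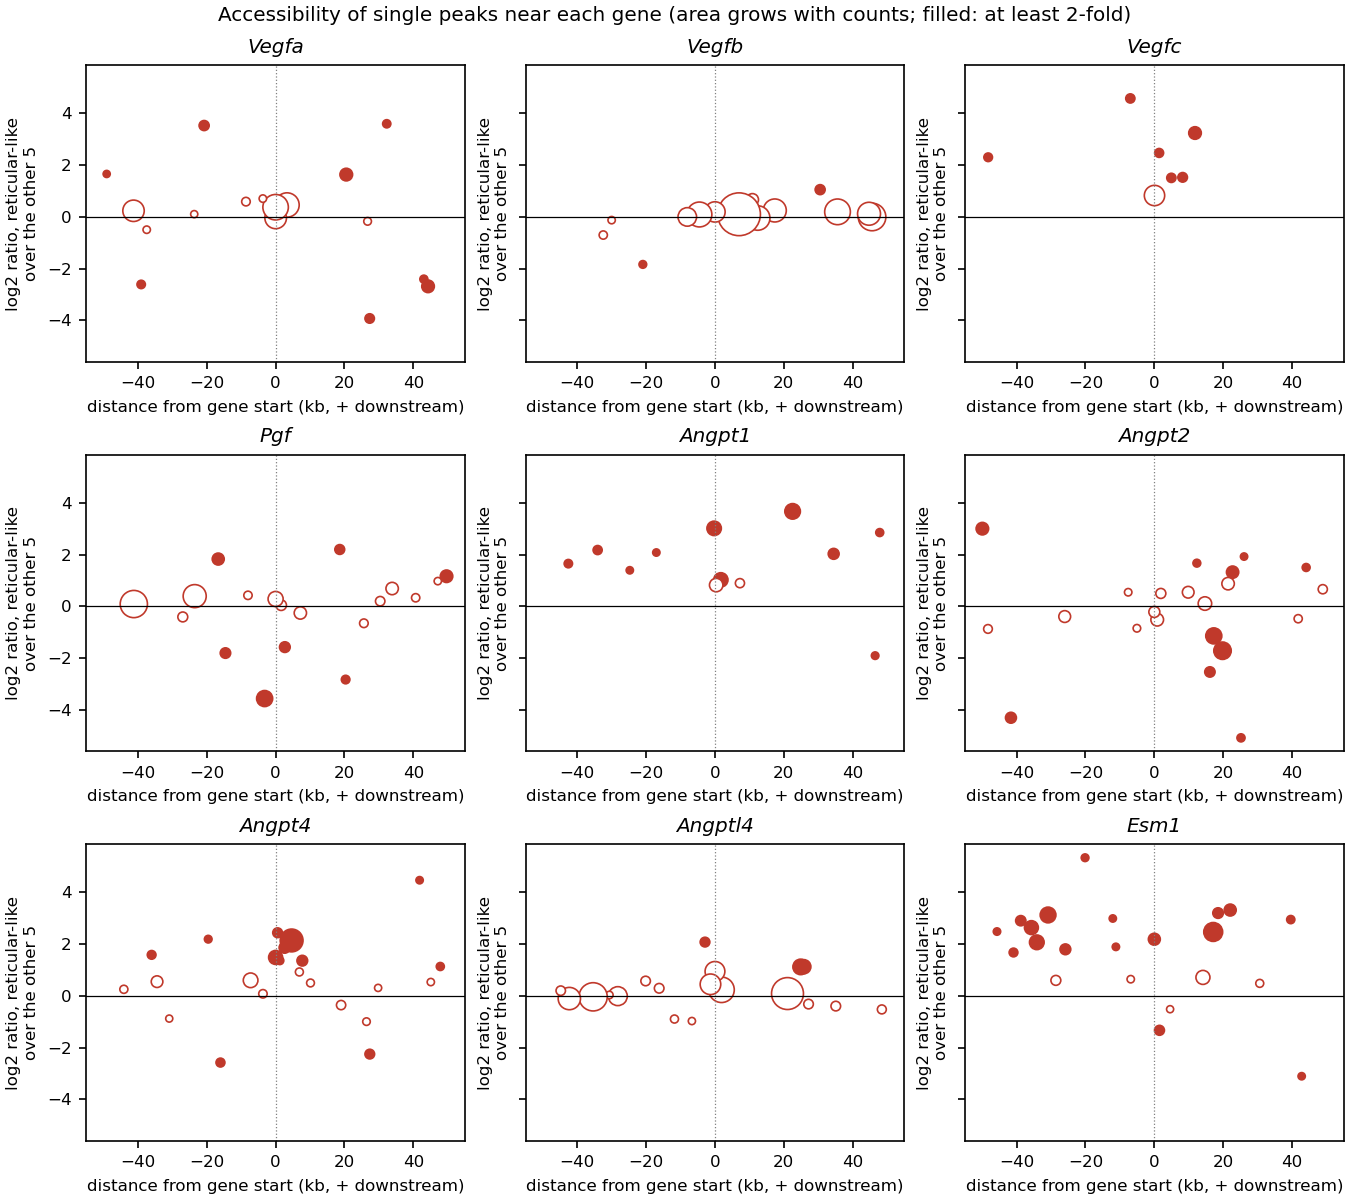
Log2 ratio of reticular-like nuclei to the other 5 stromal classes together (y axis) for each peak within 50 kb of a gene start, by distance from the start in the direction of transcription (x axis, kb), 1 panel a gene. Only peaks with at least 50 counts are drawn, the area of a circle grows with its counts, and filled circles are past 2-fold. At Vegfc, Angpt1 and Esm1 most peaks lie above 2-fold, and at Vegfb 1 of 14 does.

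At Vegfa the peak over the start (chr17:46032088-46033052) was open in every class, from 27.3 CPM in chondrocyte-like to 44.2 in reticular-like nuclei, against 37.4 in blood-like nuclei. Of the 17 peaks assessed, 4 were higher (23.5%) and 4 lower in reticular-like nuclei, and 6 (35.3%) were higher in chondrocyte-like nuclei, beside 21.3% and 21.6% of all peaks. Among the peaks of highest ratio, one 20755 bp upstream of the start (chr17:46053124-46054040) held 8.52 CPM (7.41 to 9.76) in reticular-like nuclei and 0.724 in the other 5 classes together, and one 32268 bp past the start, beyond the end of the gene (chr17:45998202-45999088), held 4.16 against 0.329. The third, 39035 bp upstream in an intron of AC110562.2, had its top level in chondrocyte-like nuclei: 17.8 CPM against 0.758.

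At Vegfc the start peak (chr8:54076900-54077707) held 41.2 CPM in intermediate and 31.8 in reticular-like nuclei, and between 8.61 and 19.8 in the other 4 classes. The peak 6971 bp upstream was at 6.65 CPM in reticular-like nuclei and at 0.263 in the other 5 classes, with 0 counts in osteoblast- and osteocyte-like nuclei. In its introns, the peaks at 1399 and 11813 bp past the start held 5.18 CPM against 0.922 and 15.4 CPM against 1.61. At Angpt1 the peak 245 bp upstream of the start, in an exon of Gm17473, held 21.1 CPM in reticular-like nuclei and 2.60 in the other 5 classes, and peaks in the gene's introns 22541 and 47839 bp past the start held 26.6 against 2.07 and 3.43 against 0.461.

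At Esm1 the start peak was at 11.9 CPM in reticular-like nuclei and 2.60 in the other 5 classes. A peak 20112 bp upstream of it, in an intron of Gzmk, held 81 of its 83 counts in reticular-like nuclei (3.30 CPM, against 0.0658), and the peak at 22030 bp past the start held 13.6 CPM against 1.35. The peak at 42779 bp held most in chondrocyte-like nuclei, 7.35 CPM against 0.558.

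At Angpt4 the start peak was highest in the same classes as the RNA. It held 21.7 CPM (14.6 to 30.9) in intermediate and 15.7 (14.2 to 17.3) in reticular-like nuclei, whose intervals overlap. The other 4 classes held between 2.10 and 6.51. A peak 41807 bp past the start held 2.53 CPM in reticular-like nuclei against 0.0987. Upstream, the peaks at 16016 and 30886 bp were those of chondrocyte-like nuclei, with 26.9 CPM against 0.519 and 5.04 against 0.578, where Angpt4 RNA was at 2.89 CPM.

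At Pgf the start peak ran from 6.93 CPM in chondrocyte-like to 15.2 in intermediate nuclei. A pair of upstream peaks was highest in mural-like nuclei, at 8025 bp with 10.5 CPM against 1.57 and at 26953 bp with 17.1 against 2.94. The peak 3189 bp upstream was highest in osteoblast-like nuclei, at 42.6 CPM against 4.71, and held 17.3 CPM in osteocyte-like nuclei, although both classes had Pgf RNA at 3.87 CPM or below. At Angpt2 the start peak was at 8.44 CPM in mural-like nuclei and 5.14 in the other 5 classes. Of its 22 peaks assessed, 7 were higher in osteoblast-like, 5 in reticular-like, 4 in mural-like, 3 in osteocyte-like, 2 in chondrocyte-like and 1 in intermediate nuclei. The 3 of highest ratio were those of osteoblast-like nuclei (13.2 CPM against 2.73 at 41635 bp upstream, and 5.70 against 0.701 in an intron 25163 bp past the start) and of reticular-like nuclei (14.9 against 1.84 at 49933 bp upstream).

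At Angptl4 the start peak was open in every class, with 30.6 CPM in reticular-like nuclei and 15.9 in the other 5, against 26.1 in blood-like nuclei. The peak 2896 bp upstream, in an intron of 4931413I07Rik, was at 6.44 CPM in reticular-like nuclei against 1.51, that at 6700 bp upstream at 7.16 in mural-like nuclei against 0.608, and that at 30667 bp upstream, in Kank3, at 4.20 in chondrocyte-like nuclei against 1.06. At Vegfb the start peak ran from 16.6 CPM in intermediate to 34.0 in mural-like nuclei. Its peaks 30002 and 32437 bp upstream, at the blood cell gene Fermt3, were at most 5.78 CPM in the stromal classes, against 28.1 and 14.96 CPM in blood-like nuclei, and one in a Fermt3 intron 20945 bp upstream held 2.81 CPM in osteoblast-like nuclei against 1.09.

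Sequences of some of the named peaks, each with a match to a motif below, are printed from the mm10 (GRCm38) genome. They are the 300 bases around the peak centre on the plus strand, and the Vegfc promoter is from RefSeq (GRCm38). They do not include every named peak of large ratio. The Angpt4 peak 16016 bp upstream, at a log2 ratio of 5.67 in chondrocyte-like nuclei, held no match and is not printed. In each sequence capitals mark the matches, on either strand, to 1 motif only, named beside it. The consensus motifs searched were CCCNNGGG for EBF factors, TGTGGT for RUNX, ACGTG for hypoxia-inducible factors (HIF), TGANTCA for AP-1 and GGAATG for TEAD. In 300-base windows of all 140637 peaks searched, CCCNNGGG was found in 12.6%, TGTGGT in 32.4%, TGANTCA in 19.5% and GGAATG in 19.0%, and in 13.7, 16.8, 7.81 and 14.7% of 32851 promoters. ACGTG was found in 16.5% of these peaks and 19.6% of these promoters. A match is a run of letters and not a shown binding site. The first 3 are peaks highest in reticular-like nuclei that hold CCCNNGGG, in capitals, and in the first, 2 matches overlap. The Esm1 peak also holds 1 match to GGAATG, left in lower case.

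Vegfa 20755 bp upstream, chr17:46053432-46053731: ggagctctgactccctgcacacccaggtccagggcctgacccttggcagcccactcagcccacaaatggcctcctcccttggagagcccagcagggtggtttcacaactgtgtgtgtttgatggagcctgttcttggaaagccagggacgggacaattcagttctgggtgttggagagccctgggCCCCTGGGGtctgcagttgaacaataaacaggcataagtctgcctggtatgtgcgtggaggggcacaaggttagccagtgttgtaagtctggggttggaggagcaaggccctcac
Vegfa 32268 bp past the start, chr17:45998495-45998794: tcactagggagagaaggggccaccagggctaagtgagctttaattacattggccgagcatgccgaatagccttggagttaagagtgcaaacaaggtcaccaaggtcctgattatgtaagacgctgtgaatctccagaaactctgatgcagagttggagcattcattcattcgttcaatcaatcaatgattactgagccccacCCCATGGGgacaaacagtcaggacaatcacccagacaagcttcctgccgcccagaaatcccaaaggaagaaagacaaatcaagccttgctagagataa
Esm1 20112 bp upstream, chr13:113188942-113189241: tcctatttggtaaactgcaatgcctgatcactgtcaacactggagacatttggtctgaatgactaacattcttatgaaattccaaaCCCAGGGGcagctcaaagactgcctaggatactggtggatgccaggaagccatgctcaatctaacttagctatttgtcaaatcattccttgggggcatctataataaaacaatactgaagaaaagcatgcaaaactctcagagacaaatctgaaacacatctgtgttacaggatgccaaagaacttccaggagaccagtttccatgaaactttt

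The Vegfc promoter, whose start peak was highest in intermediate and reticular-like nuclei, held 1 match to CCCNNGGG, and the reticular intron peak of Vegfc held 1 to TGANTCA, each in capitals.

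Vegfc promoter, chr8:54077282-54077581: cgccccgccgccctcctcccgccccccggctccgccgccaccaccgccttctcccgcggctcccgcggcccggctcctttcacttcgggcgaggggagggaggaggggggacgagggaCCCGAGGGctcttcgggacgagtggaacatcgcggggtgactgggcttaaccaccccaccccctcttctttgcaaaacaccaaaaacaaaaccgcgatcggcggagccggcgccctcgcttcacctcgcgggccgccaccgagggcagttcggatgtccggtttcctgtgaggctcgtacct
Vegfc 11813 bp past the start, chr8:54089879-54090178: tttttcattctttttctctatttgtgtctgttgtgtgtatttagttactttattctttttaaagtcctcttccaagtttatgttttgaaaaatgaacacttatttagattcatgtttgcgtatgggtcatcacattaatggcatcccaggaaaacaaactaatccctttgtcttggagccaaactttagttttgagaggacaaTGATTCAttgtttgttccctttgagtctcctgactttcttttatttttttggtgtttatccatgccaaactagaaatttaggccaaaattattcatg

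The 2 Pgf peaks printed next were highest in different classes. The osteoblast peak held 3 matches to TGTGGT, in capitals, and 1 to GGAATG. The mural peak held 2 matches to GGAATG, in capitals, the first of which overlaps a match to TGANTCA, and 1 to CCCNNGGG.

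Pgf 3189 bp upstream, highest in osteoblast-like nuclei, chr12:85181286-85181585: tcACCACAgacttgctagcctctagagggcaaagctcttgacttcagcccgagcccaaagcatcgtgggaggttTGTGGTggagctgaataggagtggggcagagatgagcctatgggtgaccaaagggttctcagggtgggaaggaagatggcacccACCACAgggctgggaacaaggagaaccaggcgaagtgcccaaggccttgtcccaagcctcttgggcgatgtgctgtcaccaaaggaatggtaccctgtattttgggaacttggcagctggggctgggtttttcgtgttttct
Pgf 8025 bp upstream, highest in mural-like nuclei, chr12:85185918-85186217: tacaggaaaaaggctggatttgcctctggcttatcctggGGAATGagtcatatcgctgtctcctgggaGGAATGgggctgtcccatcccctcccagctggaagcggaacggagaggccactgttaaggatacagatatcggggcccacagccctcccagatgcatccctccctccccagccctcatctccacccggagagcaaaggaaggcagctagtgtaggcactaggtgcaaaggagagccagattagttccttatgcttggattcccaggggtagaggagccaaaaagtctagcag

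Across the 56 reticular-higher peaks of the 9 genes, CCCNNGGG was in 9 (16.1%), beside 14.2% of the 29902 peaks higher in reticular-like nuclei genome-wide, and TGTGGT in 18 (32.1%, beside 35.7%). ACGTG was in 8 of the 56 (14.3%, beside 13.8%). Of the 11 mural-higher peaks, 5 held CCCNNGGG (45.5%, beside 17.1% of all mural-higher peaks) and 5 held TGANTCA (45.5%, beside 33.6%). The motif content of the reticular peaks thus stood near that of all such peaks, and for the mural peaks the numbers are small. Among the 9 genes, 6 had promoter entries in the RefSeq table.

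The receptors of these ligands were nearly absent from the stroma. Of the 7 receptor genes, 2 had at least 20 UMIs, and Kdr had 5, Flt1 2, Flt4 15, Tek 5 and Tie1 4 UMIs over the 6 classes. Of the Flt4 UMIs, 12 lay in chondrocyte-like nuclei, at 11.6 CPM (5.97 to 20.2) against 0.517 in the other 5 classes, too few for a call. The co-receptors were the exception. Nrp1, which binds VEGF-A, reached 435 CPM (402 to 470) in reticular-like nuclei and 67.3 in the other 5 classes, and Nrp2, which binds VEGF-C, was higher in osteoblast-like nuclei, with 1027 CPM (988 to 1066) against 384 in the other 5. It was lower in reticular-like nuclei, at 310.2 CPM against 713, and lowest in mural-like nuclei, at 88.9 CPM against 656.

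Of 20 other vessel ligands 15 were assessed, with 3 higher and 3 lower in reticular-like nuclei (beside 23.8 and 8.75% of all genes), 5 and 4 in mural-like nuclei (14.8 and 15%) and 4 and 9 in chondrocyte-like nuclei (13.6 and 21.8%). Pdgfb, which recruits pericytes, was at 37.3 CPM in mural-like nuclei and 1.54 in the other 5 classes, against 36.0 in blood-like nuclei. Chondrocyte-like nuclei were low in Jag1, a Notch ligand, at 2.89 CPM against 51.2, and in Bmp4 at 3.85 against 49.1, and osteoblast-like nuclei in Fgf2 at 1.55 against 24.0. Among 8 vessel growth inhibitors 7 were assessed, of which 2 were higher and 4 lower in reticular-like nuclei, beside 23.8 and 8.75% of all genes. Col18a1, whose fragment is endostatin, was at 467 CPM in mural-like nuclei and 3.70 in the other 5 classes, and Timp3 at 583 CPM in chondrocyte-like nuclei and 34.8 in the others. Sparc was at 1984 CPM in reticular-like nuclei and 8005 in the others, and Serpinf1 (pigment epithelium-derived factor) at 98.2 CPM in chondrocyte-like nuclei and 816 in the others.

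Vegfa and Angptl4 are known targets of the hypoxia response, so its sensors and targets were read beside them. Of 16 assessed, 1 was higher and 1 lower in reticular-like nuclei (beside 23.8 and 8.75% of all genes), and 7 were higher and 1 lower in chondrocyte-like nuclei (13.6 and 21.8%). In chondrocyte-like nuclei Pgk1 was at 240 CPM (211 to 271) and 26.2 in the other 5 classes, and Bnip3 at 108 CPM and 14.0 in the others. The glucose transporter Slc2a1 was at 2.71 CPM in osteoblast-like nuclei and 40.0 in the other 5 classes, and Pdk1 had 0 UMIs in mural-like nuclei, which allows up to 10.6 CPM, and 11.9 CPM in the others. Angptl4 is also a PPAR target, and of 9 PPAR and lipid genes assessed 6 were higher and 0 lower in reticular-like nuclei (beside 23.8 and 8.75% of all genes), and 4 were higher and 1 lower in mural-like nuclei (14.8 and 15%). Pparg was at 2.71 CPM in osteoblast-like nuclei and 95.2 in the other 5 classes, and lipoprotein lipase (Lpl), which Angptl4 inhibits, at 14.5 CPM in osteocyte-like nuclei and 411 in the others. Fabp4 was at 267 CPM in mural-like nuclei and 7.86 in the others, and Cd36 had 0 UMIs in chondrocyte-like nuclei and 5.001 CPM in the others, against 87.0 in blood-like nuclei.

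For the 6 genes of the 9 with at least 100 UMIs, the genes with the most similar levels over the 6 classes were sought among 6085 genes, by Pearson r of log2(CPM + 1). They were Terf1, Arid4b and Ube2k for Vegfa (r from 0.994 to 0.998), Stx7, Cyp1b1 and H2-D1 for Vegfc (0.997 to 0.998), St5, Krit1 and Igfbp5 for Angpt1 (0.997 to 0.9995), and Scmh1, Birc6 and Kcnq3 for Esm1 (0.992 to 0.995). For Angpt4 they were Spidr, Zfp638 and Sos2 (0.995 to 0.996), and for Angptl4 Rabep1, Stat5a and Dapk1 (0.992 to 0.999). With 6 points that share depth and free RNA, these values describe likeness of pattern only.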

How the data were processed

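The deposited values were raw counts per barcode from the authors, produced by Cell Ranger ARC (cellranger-arc 2.0.0 in the matrix header) on mm10 with transgene contigs added: UMIs for 32293 genes and ATAC counts for 203545 peaks. A separate peak list was not used. Barcodes with at least 500 UMIs and 1000 ATAC counts were kept (4663). Scrublet called 0 doublets, so the 174 with the highest scores were removed (0.8% per 1000 nuclei). Empty droplets had 100 to 400 UMIs and under 500 ATAC counts.

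A nucleus was gated when the markers of a type, those under 1000 CPM in empty droplets, summed to at least 2-fold the level expected from empty droplets at its depth (Poisson p of 0.01 or less, at least 3 UMIs from 2 markers), and intermediate when reticular and osteoblast markers both passed 1.5-fold. A nucleus past several gates needed a 2-fold lead of 1 of them. Where the osteocyte and osteoblast gates both passed, the osteoblast gate was set aside with no lead required. The 9 genes were left out of gating and clustering (Leiden, resolution 1.5), as were mitochondrial genes.

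UMIs and ATAC counts were summed per class. Log2 ratios set a class against the other 5 summed, with 0.5 added to both sides, and calls needed 2-fold and 20 counts (50 for single peaks). With 1 library of each kind no test was run. Molecules amplified by PCR and droplets of 1 suspension are not independent samples. A step on simulated data tested the scripts. The genes, lists and motifs were chosen with earlier results of these data known, and the gate rules were set after the data were seen. Named were all 9 genes, up to 4 genes per list with the largest ratio, the start peak and up to 3 peaks of highest ratio per gene, and the 3 most alike genes. Peak and gene coordinates are those of mm10: 32235 of 32293 gene identifiers were in GENCODE M21, and all 32851 RefSeq promoters were identical to the genome used. In all, 24 alternatives were planned and 5 were added after seeing the data. Python 3.11.15, numpy 2.4.6, pandas 2.3.3, scipy 1.17.1, scikit-learn 1.9.0, scanpy 1.11.5 and matplotlib 3.10.9 were used.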

Additional observations from a re-analysis of the deposited data

How the results depend on the processing

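Over 16 RNA settings, 0 of 560 values of called genes changed direction and 10 fell under 2-fold. Calls ran from 35 to 41, with 35 as reported, and those higher in reticular-like nuclei from 6 to 9. Over 7 accessibility settings, 0 of 112 values changed direction and 20 fell under 2-fold, with 12 to 17 calls against 16 as reported. Esm1 and Angpt4 gave most of these 20: in reticular-like nuclei Angpt4 fell under 2-fold in 3 settings (lowest 0.75) and Esm1 in 2 (lowest 0.78), and Esm1 in osteoblast-like nuclei was at −0.14 over the gene and 3 kb upstream, with −1.93 as reported. Called peaks were the exception: 431 class calls within 50 kb became 207 at 4-fold and 689 within 100 kb, and the 56 higher in reticular-like nuclei became 31 at 4-fold and 91 within 100 kb. The shares were 20% at 4-fold, beside 10.1% of all peaks, and 35.7% within 100 kb, beside 21.3%. Held to 10% mitochondrial UMIs, an alternative chosen after seeing the data like the removal of the Gm16685-high and Pecam1 clusters and the centring on all genes, 38 of 103 peaks (36.9%) were higher, beside 29.99% of all peaks. No paired analysis was possible because there was 1 library of each kind. Depth limits Vegfb, with 18 UMIs in all, and the 37 intermediate nuclei, in which Angpt2 and Pgf rest on 3 UMIs each.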

Other observations

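Blood-like nuclei, the reference of the report, were not alike in the 9 genes. Vegfb, which no stromal class held above 8.60 CPM, was at 23.7 CPM (11.4 to 43.6) in 93 macrophage- or osteoclast-like nuclei, from 10 UMIs, and at 0 UMIs in 144 erythroid-like and 123 granulocyte-like nuclei. Angpt1 was at 71.3 CPM (49.4 to 99.6) in 147 nuclei led by general blood markers, close to its 65.9 CPM in mural-like nuclei, and at 7.11 to 31.7 CPM in the erythroid-, granulocyte-, macrophage- and B-lymphoid-like nuclei. Of the 34 Angpt1 UMIs in those 147 nuclei, 10 came from a single nucleus. Vegfa was at 56.8 CPM (36.4 to 84.6) in macrophage- or osteoclast-like nuclei, against 66.4 in empty droplets.

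Outside the 6 classes and blood, 61 nuclei with periosteal markers held Vegfa at 81.9 CPM (54.9 to 118), and 24 with tenocyte or synovial markers at 86.3 CPM (43.1 to 154). The 2247 nuclei that passed no gate had Vegfa at 73.5 CPM (66.6 to 80.9), Angpt1 at 23.4 and Vegfc at 22.7 CPM, near the 66.4, 27.4 and 29.8 CPM of empty droplets.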
